A study of Homo sapiens with 4 samples.

Results

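The peroxidase genes described here are the 6 peroxiredoxins PRDX1 to PRDX6, the glutathione peroxidases GPX1, GPX2 and GPX4, and catalase (CAT). They were found by their symbols in a table of 57979 genes, and each of the 10 symbols stood on 1 line. RNA had been sequenced in 4 libraries of cells labelled HepG2, a human liver cancer cell line grown in DMEM with fetal bovine serum. There were 2 libraries with the wild-type genotype and 2 with TXNDC9 knocked out by CRISPR-Cas9. TXNDC9 is a thioredoxin domain protein of the phosducin-like family that binds the TCP1 chaperonin. The study delivered its guides with a lentiviral Cas9 vector and sorted infected cells for its protein measurements. Whether the sequenced cells were a pool or a clone, and whether the wild-type cells carried an empty vector, is not given in the sources used here. Nothing in the labels says that the libraries came from separate cultures, so p-values measure only the spread between these libraries, which may be technical.

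Peroxiredoxins destroy hydrogen peroxide with a reactive cysteine. The oxidized enzyme is reloaded by thioredoxin, which thioredoxin reductase recharges with electrons from NADPH. Glutathione peroxidases draw the electrons from glutathione instead, and catalase splits hydrogen peroxide with a haem group inside peroxisomes. The enzymes are spread over the compartments of the cell, with PRDX3 in mitochondria, PRDX4 in the endoplasmic reticulum and PRDX1, PRDX2 and PRDX6 mainly in the cytosol. Catalase and GPX1 are abundant in liver, and GPX2 is best known from the epithelium of the gut.

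GPX1, GPX2 and GPX4 differ from the other members in carrying selenocysteine, which the ribosome inserts at a TGA codon that would elsewhere end translation. The 27 bases around this codon are shown because they set the 3 glutathione peroxidases apart from the peroxiredoxins and catalase. They were read in the sense direction from the canonical transcripts of GENCODE release 44 (hg38), with the TGA in capitals.

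GPX1: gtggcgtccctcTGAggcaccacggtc

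GPX2: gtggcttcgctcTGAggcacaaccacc

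GPX4: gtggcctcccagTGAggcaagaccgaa

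The GPX1 stretch lies at chr3:49358120-49358146 on the minus strand, in the coding part of exon 1 of 2. That of GPX2 lies at chr14:64942595-64942621 on the minus strand, in exon 1 of 2, and that of GPX4 at chr19:1105391-1105417 on the plus strand, in exon 3 of 7. The TGA is codon 49 of 203 in GPX1, 40 of 190 in GPX2 and 73 of 197 in GPX4. None of the coding sequences of the peroxiredoxins or catalase held an in-frame TGA before its stop codon. Among 19725 complete canonical coding sequences, 32 (0.162%) held one.

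The cells were checked against markers before the members were compared. None of 10 genes of hepatocyte-derived cells (ALB, AFP, APOA1, APOB, APOH, TTR, SERPINA1, FGB, HNF4A and FOXA2) reached 1 FPKM in any library. Their highest single value was 0.449 FPKM, for AFP, and APOA1, APOH and FOXA2 were listed at 0 in all 4 libraries. Their summed level was 0.351 and 0.716 FPKM for wild type, against 0.0479 and 0.121 FPKM for the knockout. The defining markers of the labelled line were thus at or near 0 in every library, and the values below are those of the cells labelled HepG2. The markers of other cell types were few: COL1A1 reached 31.5 FPKM and CD68 6.90 FPKM, while COL1A2, CD163 and CD3E were listed at 0. The summed fibroblast markers were 24.7 to 33.9 FPKM in wild-type and 21.1 to 24.6 FPKM in knockout libraries, the immune markers 3.42 to 5.34 and 5.96 to 7.04 FPKM, and the endothelial markers 0.803 to 1.22 and 3.42 to 4.41 FPKM, of which CDH5 was the highest. COL1A1 made up most of the fibroblast sum. Of the markers of other cell types, CDH5 (log2 fold change 1.92, adjusted p = 0.00195) and the fibroblast marker PDGFRB (log2 fold change 1.55, adjusted p = 0.00392) were called higher in the limma comparison described below. Their part in the results was not tested.

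FPKM values are fragments scaled to transcript length and library size. How the libraries were normalized is not given in the sources used here. The FPKM values had sums of 805816 and 971102 for wild-type libraries, and of 535973 and 568279 for knockout libraries. They are not counts and the depth is unknown. TXNDC9 itself had 35.1 and 37.3 FPKM in wild-type cells, against 21.9 and 27.6 FPKM in knockout cells. Both knockout values lay below both wild-type values, with a log2 fold change of −0.55 and an adjusted p of 0.0145, short of the call. Rescaling to TPM, where all libraries have an equal sum, turned its log2 fold change to 0.12, so its direction depends on the scale. TXNDC9 mRNA was thus still present in the libraries labelled as knockout. The study judged its knockout by western blot, where it reported significantly reduced TXNDC9, and mRNA values do not measure protein.

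To determine whether the peroxidase genes differed between wild-type and knockout cells, log2(FPKM + 0.1) was compared with limma over 13246 genes whose average was above 1 FPKM. Adjusted p-values below are from this fit with Benjamini-Hochberg adjustment over all these genes. To be called, a gene needed an adjusted p below 0.01 together with a change of 2-fold or more. Of the 10 members, 9 could be tested, and 5 fell: PRDX2, PRDX4, PRDX5, GPX1 and GPX4. Among all genes tested, 15.3% were called lower. None of the 9 was called higher, against 14.2% of all genes, although 2 of them, PRDX3 and CAT, were above 0 at an unadjusted p under 0.05, as were 4369 of the 13246 genes. The median log2 fold change of the 9 members was −1.19, and that of all genes tested was −0.09. For 7 of the 9, both knockout values were below both wild-type values, as for 45.9% of all genes, and for the other 2 they were above, as for 40.1% of all genes. In RNA from bulk cells, fewer cells with a transcript and less of it per cell cannot be told apart. Gene positions below are those of GENCODE release 44 on hg38.

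**Figure D1:**
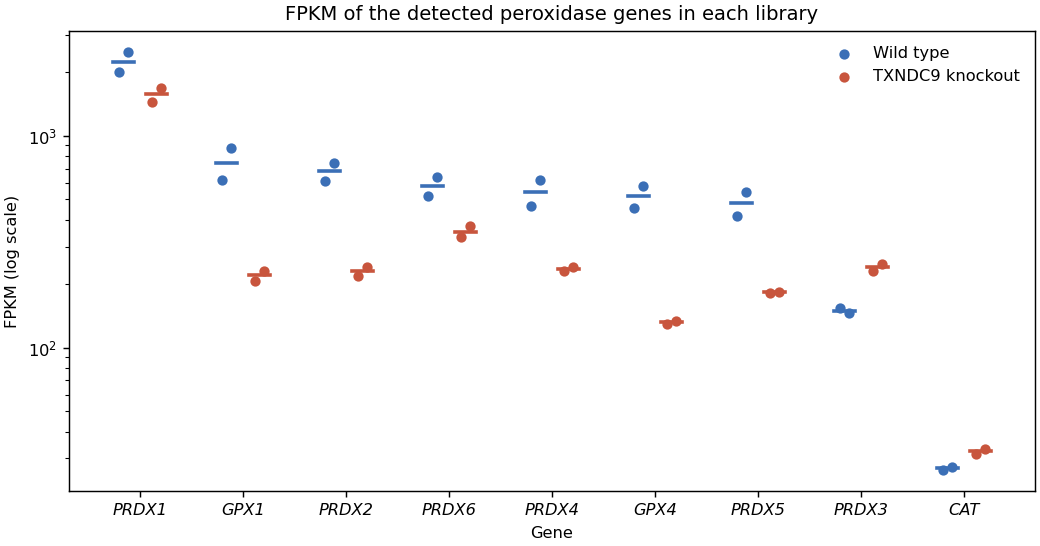
FPKM on a log scale for the 9 peroxidase genes with an average above 1 FPKM, ordered by wild-type mean, where each point is 1 library and each bar the mean of 2 libraries. The knockout points lie below the wild-type points for 7 genes and above them for PRDX3 and CAT.

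PRDX1 (chromosome 1, 45510914 to 45542732, minus strand), the most abundant cytosolic peroxiredoxin, was 1999 and 2479.6 FPKM in wild-type libraries, against 1449.6 and 1681 FPKM in knockout libraries. It had the highest level of all members in every library, and its knockout values lay below both wild-type values. The log2 fold change was −0.51 with a 95% interval from −1.03 to 0.01 (adjusted p = 0.0737), so it was not called. PRDX2 (chromosome 19, 12796820 to 12801800, minus strand), its close relative in the cytosol, was 614 and 745 FPKM in wild-type libraries, against 218 and 241 FPKM in knockout libraries. PRDX2 fell 2.95-fold, with a log2 fold change of −1.56 (standard error 0.16, adjusted p = 7.32e-04). The ratio of PRDX1 to PRDX2 within a library does not depend on how libraries are scaled, but it was not corrected for transcript length or GC content. It was 3.25 and 3.33 in the wild-type libraries and 6.66 and 6.97 in the knockout libraries, without overlap. PRDX2 shares bases with HOOK2 on the same strand and with an antisense gene, and PRDX1 and PRDX6 overlap genes on the other strand. The use of strand is not given in the sources used here, so reads of these pairs may be split between them.

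The mitochondrial peroxiredoxins differed in direction. PRDX3 (chromosome 10, 119167720 to 119178812, minus strand) was 154 and 145 FPKM in wild-type libraries, against 230.5 and 249 FPKM in knockout libraries. Its knockout values lay above both wild-type values, with a log2 fold change of 0.68 (95% interval 0.39 to 0.97) and an adjusted p of 0.00375. The fold change of 1.60 was under 2, so PRDX3 was not called. PRDX5 (chromosome 11, 64318121 to 64321811, plus strand), which is found in mitochondria, peroxisomes and the cytosol, was 419 and 543 FPKM in wild-type libraries, against 182 and 183 FPKM in knockout libraries. It fell 2.61-fold, with a log2 fold change of −1.38 (standard error 0.16, adjusted p = 0.00106). Within a library, the ratio of PRDX3 to PRDX5 was 0.369 and 0.266 in wild-type cells, against 1.27 and 1.36 in knockout cells. PRDX3 was thus the lower of the pair in both wild-type libraries and the higher in both knockout libraries. The intervals of their log2 fold changes did not overlap, since that of PRDX5 ran from −1.79 to −0.98. The ratio and the intervals were not corrected for transcript length or GC content. With that correction, described below, the log2 fold changes were 0.81 for PRDX3 and −0.50 for PRDX5.

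PRDX4 (chromosome X, 23664262 to 23686397, plus strand), the peroxiredoxin of the endoplasmic reticulum, was 466 and 619 FPKM in wild-type libraries, against 231 and 241 FPKM in knockout libraries. It fell 2.28-fold, with a log2 fold change of −1.19 (standard error 0.17, adjusted p = 0.00207). PRDX4 lay nearest to the fold change limit among the called members, and without wild-type replicate 2 its log2 fold change was −0.98 and it was not called. PRDX6 (chromosome 1, 173477330 to 173488815, plus strand), which draws electrons from glutathione and also acts on phospholipids, was 522 and 638 FPKM in wild-type libraries, against 331 and 373 FPKM in knockout libraries. Both knockout values were below both wild-type values. The log2 fold change was −0.72 (95% interval −1.12 to −0.31) and the adjusted p was 0.0102. With a fold change of 1.64, under 2, PRDX6 was not called.

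GPX4 and GPX1, the selenocysteine enzymes whose TGA codons are shown above, had the most negative log2 fold changes of the 9 members. GPX4 (chromosome 19, 1103982 to 1106791, plus strand), which reduces lipid peroxides within membranes and guards cells against ferroptosis, was 457 and 581 FPKM in wild-type libraries, against 129.8 and 134 FPKM in knockout libraries. It fell 3.91-fold, with a log2 fold change of −1.97 (standard error 0.16, adjusted p = 5.38e-04). GPX1 (chromosome 3, 49357174 to 49358605, minus strand), the general glutathione peroxidase of cytosol and mitochondria, was 616 and 872 FPKM in wild-type libraries, against 207 and 231 FPKM in knockout libraries. It fell 3.36-fold, with a log2 fold change of −1.75 (standard error 0.20, adjusted p = 9.98e-04). GPX1 shares bases on the same strand with the gene ENSG00000290318, so reads there may be split. Both genes had tightly spaced knockout values and a wider wild-type spread, with replicate 2 the higher of the wild-type libraries. GPX2 (chromosome 14, 64939152 to 64942746, minus strand) was 0.0397 and 0.161 FPKM in wild-type libraries and 0.0353 FPKM in 1 knockout library, and it was listed at 0 in the other. It did not pass the filter on low values, and no fold change is given.

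CAT (chromosome 11, 34438934 to 34472060, plus strand), the peroxisomal catalase, was 26.5 and 27.3 FPKM in wild-type libraries, against 31.6 and 33.4 FPKM in knockout libraries. The knockout values were both above the wild-type values, with a log2 fold change of 0.27 (95% interval 0.03 to 0.51, adjusted p = 0.0508), and CAT was not called. It was the least abundant of the 9 tested members in every library.

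Processed copies of these genes in the genome can take up reads. The table held 12 pseudogenes named after members, and 11 of them stayed under 1 FPKM in every library. The exception was GPX1P1, with 0.602 and 1.46 FPKM in wild-type libraries, against 0.0637 and 0.221 FPKM in knockout libraries, far below GPX1 itself.

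FPKM values are scaled to transcript length, so levels of different genes are given side by side. The order can still carry the dependence on transcript length and GC content described below, and it was not corrected for it. In the wild-type libraries the order by mean was PRDX1, GPX1, PRDX2, PRDX6, PRDX4, GPX4, PRDX5, PRDX3, CAT and GPX2. From GPX1 to PRDX5 each gene overlapped its neighbour in range. These ranges include the difference in level between the 2 wild-type libraries, which the genes share. Within each of the 2 libraries, the genes from GPX1 to PRDX5 stood in the order given. Whether neighbours differ was not tested. Genes farther apart in this stretch did not overlap: GPX1 and PRDX2 lay above GPX4 and PRDX5. PRDX1 stood above the whole stretch, and PRDX3, CAT and GPX2 below it, without overlap. In the knockout libraries PRDX1 and PRDX6 led without overlapping, at means of 1565 ± 164 and 352 ± 29.9 FPKM (SD, n = 2). PRDX3, PRDX4, PRDX2 and GPX1 followed, with each overlapping the next, and then PRDX5, GPX4 and CAT stood apart from each other. PRDX3 was thus 8th of the 10 in wild-type cells, at 149 ± 6.83 FPKM, and 3rd in knockout cells, at 239.7 ± 13.0 FPKM (SD, n = 2).

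The makeup of the peroxidase mRNA is another quantity that no library scaling can change. Shares and ratios within a library can still carry the dependence on transcript length and GC content described below. They were not corrected for it. PRDX1 held 37.9% and 37.3% of the summed FPKM of the 10 genes in wild-type libraries and 48.2% and 49.9% in knockout libraries. PRDX3 went from 2.92% and 2.17% to 7.66% and 7.39%. GPX1 held 11.7% and 13.1% in wild-type and 6.86% and 6.85% in knockout libraries, and GPX4 8.67% and 8.74% against 4.31% and 3.97%. The groups did not overlap for any of these 4 shares, nor for those of the other tested members, so this does not set the 4 apart. In FPKM, 45.9% of all genes tested were lower and 40.1% higher in both knockout libraries without overlap. The 10 genes together took 0.654% and 0.685% of the summed FPKM of the wild-type libraries and 0.561% and 0.592% of that of the knockout libraries.

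**Figure D2:**
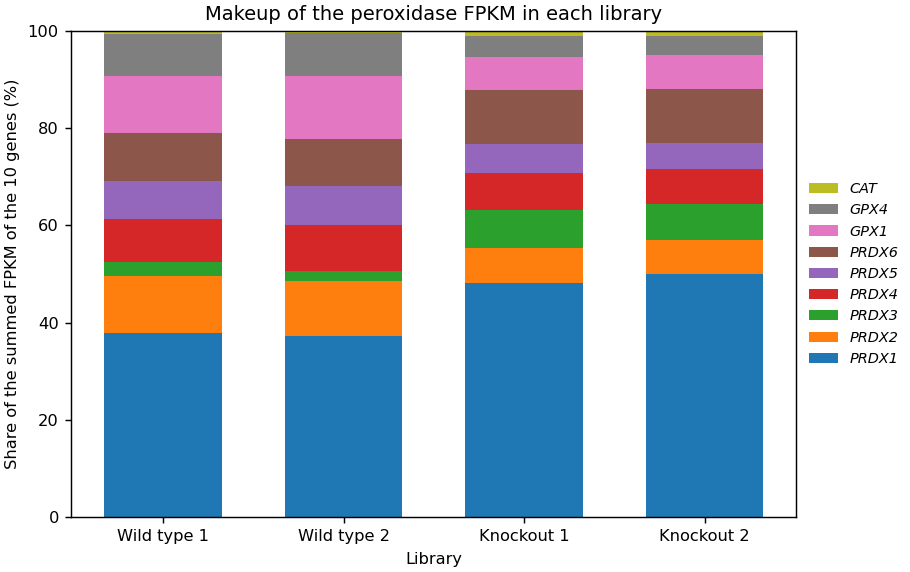
Share of the summed FPKM of the 10 peroxidase genes (%) held by each gene in each of the 4 libraries; GPX2 is too low to be seen. PRDX1 takes 37.3% to 37.9% in wild-type and 48.2% to 49.9% in knockout libraries, while the shares of GPX1 and GPX4 are smaller in both knockout libraries.

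The change of the members ran with the composition of their transcripts. The 4 members with the most negative log2 fold changes (GPX4, GPX1, PRDX2 and PRDX5) had a GC content of 58.2% to 62.4% in the canonical transcript and lengths of 851 to 925 nt. PRDX3 and CAT, the members above 0, had 40.2% and 45.0% GC and 1553 and 2291 nt. Across the 9 members the Spearman correlation of the log2 fold change was −0.917 with GC content and 0.833 with length. Across 13132 genes it was −0.461 and 0.494. The genes share the same 4 libraries, so these correlations describe the libraries and carry no test. Between the wild-type libraries, the log2 ratio of replicate 2 to replicate 1 had a correlation of −0.325 with length across genes, and 8 of the 9 members were higher in replicate 2. Between the knockout libraries this correlation was −0.0627, and 9 of the 9 members were higher in replicate 2.

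**Figure D3:**
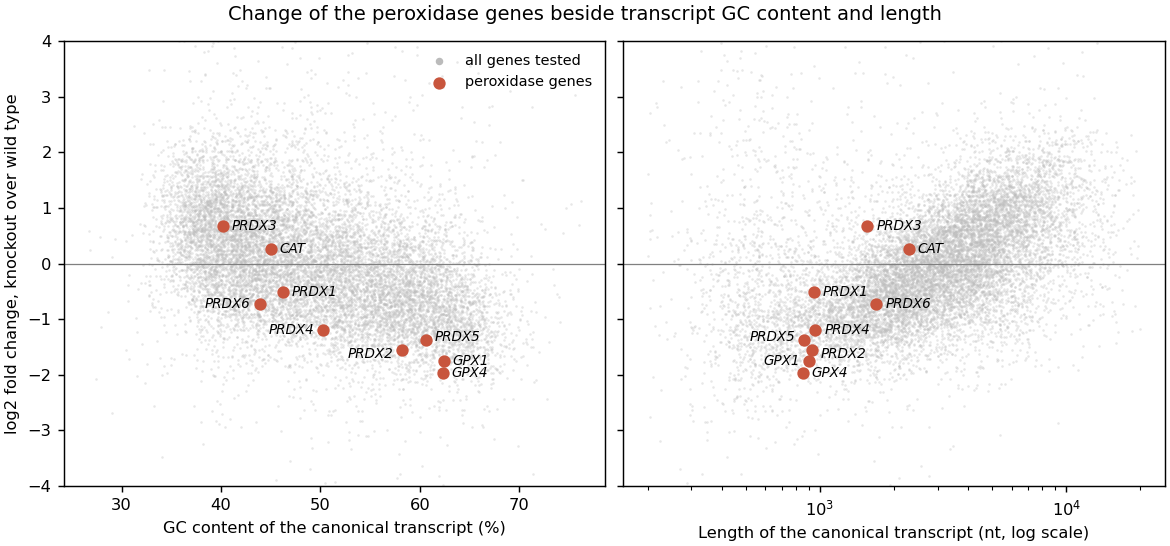
log2 fold change of FPKM (knockout over wild type) against GC content (left) and length on a log scale (right) of the canonical transcript, for the 9 tested peroxidase genes (red) and all genes tested (grey). Members with more GC and shorter transcripts have the more negative values; 72 genes with changes beyond ±4 and 63 with lengths outside 200 to 20000 nt are not drawn.

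Library values were also corrected for the length and GC content of the transcripts, which reduced the falls. With it, GPX4 was the only one of the 9 members still called lower, with a log2 fold change of −1.05 (adjusted p = 0.00144), where 7.89% of all genes were called lower. The corrected log2 fold change was −0.81 for GPX1 (adjusted p = 0.00697), −0.74 for PRDX2 (adjusted p = 0.00406), −0.68 for PRDX4 (adjusted p = 0.00709) and −0.50 for PRDX5 (adjusted p = 0.0151). These 4 kept their direction but were short of a 2-fold change. PRDX3 had a corrected log2 fold change of 0.81 (adjusted p = 0.00267), PRDX1 −0.14 and CAT 0.29. No member was called higher, against 6.44% of all genes. PRDX3 and CAT were the 2 members above 0 at an unadjusted p under 0.05, as were 3407 of the 13132 genes.

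Scaling moved the members as well. After rescaling to TPM, which raised the median log2 fold change of all genes from −0.09 to 0.59, GPX4 (−1.29, adjusted p = 1.19e-04) and GPX1 (−1.07, adjusted p = 1.87e-04) remained called lower, against 3.37% of all genes. PRDX3 was then called higher, with a log2 fold change of 1.36 (adjusted p = 1.96e-04), as were 33.1% of all genes. PRDX1 changed sign to 0.17, and PRDX6 stood at −0.03. Relative to the median of all genes, the order of the members was the same, since the rescaling adds nearly the same amount to each. Without knockout replicate 1 or without knockout replicate 2, limma called 0 of the 13246 genes. The 5 called members then had adjusted p-values between 0.0232 and 0.0518, and 6 of the 9 members were under an unadjusted p of 0.05 in each case, as were 7129 and 7307 of all 13246 genes. Their log2 fold changes stayed between −1.99 and −1.16 in these fits.

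**Figure D4:**
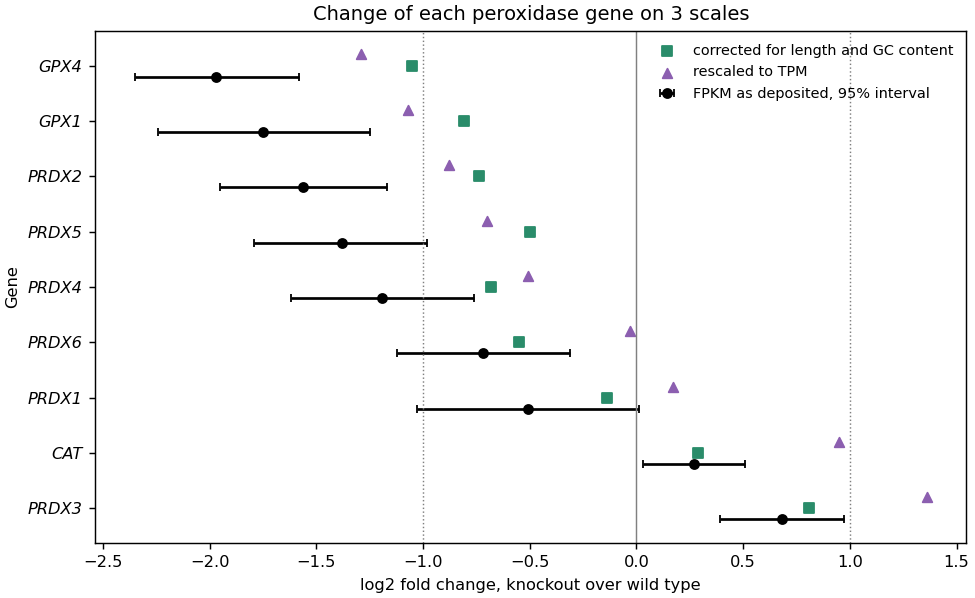
log2 fold change (knockout over wild type) of the 9 tested peroxidase genes: FPKM as deposited with 95% limma intervals (circles), after correction for transcript length and GC content (squares), and after rescaling to TPM (triangles). Dotted lines mark a 2-fold change; GPX4 lies beyond it on all 3 scales, and PRDX1 lies on both sides of 0.

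The genes that serve the peroxidases were compared in the same fit, from lists that hold 92 genes, of which 66 were tested. Of these, 11 (16.7%) fell and 6 (9.09%) rose, while 15.3% and 14.2% of all genes did so. These shares of all genes are the background for each list below. The median of the log2 fold changes of the list genes was −0.16. After the correction for length and GC content, 3 were lower and 1 higher, against 7.89% and 6.44% of all genes. Among these 3, QSOX1 was called only with the correction (log2 fold change −0.66 without it and −1.09 with it) and was named after its values were seen.

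Of 10 genes that reload peroxiredoxins through thioredoxin, 9 were tested, 2 fell and 1 rose. TXNRD1, the cytosolic thioredoxin reductase, rose from 153 and 152 FPKM to 352 and 406 FPKM, with a log2 fold change of 1.31 (adjusted p = 7.22e-04), or 0.90 and not called after the correction. TXN, the cytosolic thioredoxin that TXNRD1 recharges, was 824 and 1122 FPKM in wild-type libraries, against 461 and 523 FPKM in knockout libraries. Its log2 fold change of −0.97 (adjusted p = 0.00714) was short of 2-fold. The ratio of TXNRD1 to TXN within a library was 0.186 and 0.136 in wild-type and 0.764 and 0.777 in knockout cells. In mitochondria, the reductase TXNRD2 fell from 44.5 and 51.9 to 21.3 and 21.8 FPKM (log2 fold change −1.16, adjusted p = 7.26e-04). The mitochondrial thioredoxin TXN2, which reloads PRDX3, fell from 107 and 123 to 51.6 and 58.8 FPKM (log2 fold change −1.06, adjusted p = 0.00117). Neither was called after the correction, at −0.35 and −0.32. The ratio of PRDX3 to TXN2 was 1.44 and 1.18 in wild-type and 4.47 and 4.23 in knockout libraries. SRXN1, the sulfiredoxin that repairs overoxidized peroxiredoxins, was 44.1 and 43.1 FPKM in wild-type libraries, against 34.9 and 45.1 FPKM in knockout libraries, which overlap (log2 fold change −0.14, 95% interval −0.49 to 0.22).

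All 12 genes of glutathione supply were tested, and 2 rose and 1 fell. Of the 12, 7 had a negative log2 fold change and 5 a positive one. Their median was −0.33, against 0.13 after the correction and 0.35 under TPM. SLC3A2 was 688 and 811 FPKM in wild-type libraries, against 376 and 406 FPKM in knockout libraries (log2 fold change −0.93, adjusted p = 0.00316, not called). GLRX3 (−0.74), GLRX2 (−0.72) and GSS (−0.50) were also lower and not called. With the correction these were −0.54, −0.44 and 0.04, and under TPM −0.06, −0.04 and 0.18. GSS thus changed sign on both scales. SLC7A11, the cystine importer that feeds glutathione synthesis, rose from 5.23 and 6.08 FPKM to 21.9 and 29.6 FPKM, with a log2 fold change of 2.15 (adjusted p = 5.38e-04). GCLM, the modifier subunit of the enzyme that starts glutathione synthesis, rose from 9.04 and 8.53 to 16.9 and 18.7 FPKM, with a log2 fold change of 1.01 (adjusted p = 8.54e-04), just over the limit. GCLC, its catalytic subunit, was 21.1 and 20 FPKM in wild-type libraries, against 32.0 and 38.2 FPKM in knockout libraries (log2 fold change 0.76, adjusted p = 0.00291, not called). GSR, which returns oxidized glutathione to its reduced form, was 33.3 and 29.6 FPKM in wild-type libraries, against 46.4 and 49.3 FPKM in knockout libraries (log2 fold change 0.61, adjusted p = 0.0044, not called). GLRX5, a mitochondrial glutaredoxin of iron-sulfur cluster assembly, fell from 81.9 and 90.5 to 41.7 and 41.0 FPKM (log2 fold change −1.05, adjusted p = 7.40e-04). The corrected log2 fold changes were 0.93 for SLC7A11, 0.22 for GCLM and −0.47 for GLRX5, and none of the 3 was called.

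The machinery that places selenocysteine in GPX1, GPX2 and GPX4 held 8 genes, all tested, of which 1 fell and 1 rose. PSTK, the kinase that prepares serine on the selenocysteine tRNA, fell from 7.63 and 11.3 to 4.49 and 3.76 FPKM (log2 fold change −1.15, adjusted p = 0.0047). SEPSECS, the synthase that then forms selenocysteine, rose from 2.48 and 1.70 to 5.94 and 4.81 FPKM (log2 fold change 1.34, adjusted p = 0.00362). Neither was called after the correction. SECISBP2, which binds the element in the mRNA that recodes TGA, was 9.73 and 8.75 FPKM in wild-type libraries, against 13.1 and 14.2 FPKM in knockout libraries (log2 fold change 0.56, adjusted p = 0.00661, not called). SEPHS2, which makes the selenium donor, was 33.8 and 32.8 FPKM in wild-type libraries, against 32.5 and 32.2 FPKM in knockout libraries, with a log2 fold change of −0.04 (95% interval −0.28 to 0.19) that changed sign to 0.64 under TPM.

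Of 16 other selenoprotein genes, all of which hold an in-frame TGA in their canonical coding sequence, 12 were tested. Of the 12, 4 (33.3%) fell and 2 (16.7%) rose, against 15.3% and 14.2% of all genes. The falls with the largest size were those of SELENOM, from 7.96 and 12.5 to 1.53 and 2.18 FPKM (log2 fold change −2.38, adjusted p = 9.73e-04), SELENOO (log2 fold change −1.79, adjusted p = 5.38e-04) and SELENOW (log2 fold change −1.72, adjusted p = 8.22e-04). The fourth was SELENOH, at −1.33, which was named after its value was seen. SELENOP, a secreted selenium carrier, rose from 1.93 and 1.65 to 13.1 and 8.89 FPKM (log2 fold change 2.53, adjusted p = 5.72e-04), and SELENOI rose with a log2 fold change of 1.30 (adjusted p = 5.72e-04). SELENOM (−1.58), SELENOW (−1.01) and SELENOP (2.42) were still called after the correction, where 7.89% of all genes were called lower and 6.44% higher.

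Among the other glutathione peroxidases only GPX8 of the endoplasmic reticulum was tested. It was 37.9 and 45.0 FPKM in wild-type libraries, against 31.6 and 32.1 FPKM in knockout libraries, with a log2 fold change of −0.37 (adjusted p = 0.0334, not called). GPX3, GPX5, GPX6 and GPX7 did not exceed 0.0608 FPKM in any library.

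Of 25 genes whose products make hydrogen peroxide or superoxide, or turn superoxide into peroxide, 8 were tested. SOD1, the cytosolic superoxide dismutase that yields hydrogen peroxide, fell from 591 and 717 to 283 and 303 FPKM, with a log2 fold change of −1.15 (adjusted p = 0.00158), or −0.83 and not called after the correction. SOD2, its mitochondrial counterpart, was 41.5 and 51.6 FPKM in wild-type and 54.8 FPKM in both knockout libraries (log2 fold change 0.24, adjusted p = 0.152), and it changed sign to −0.85 with the correction. None of the 8 was called higher by limma, and 2 were above 0 at an unadjusted p under 0.05, as were 4369 of the 13246 genes.

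All 16 peroxisome biogenesis genes, whose products import catalase and other enzymes, were tested. PEX16, which acts in peroxisome membrane assembly, fell from 21.2 and 34.7 to 9.16 and 10.6 FPKM (log2 fold change −1.45, adjusted p = 0.00317). PEX11G, a factor of peroxisome division, fell from 1.87 and 1.92 to 0.670 and 0.723 FPKM (log2 fold change −1.33, adjusted p = 0.0074). Neither was called after the correction, at −0.52 for PEX16 and −0.34 for PEX11G, nor under TPM, at −0.77 and −0.72. PEX5, the receptor that carries catalase into peroxisomes, was 16.5 and 14.7 FPKM in wild-type libraries, against 22.5 and 21.7 FPKM in knockout libraries (log2 fold change 0.50, adjusted p = 0.00816, not called). None of the 16 was called higher by limma, although 8 were above 0 at an unadjusted p under 0.05, as were 4369 of the 13246 genes. The median of the 16 was 0.16. Under TPM, where 33.1% of all genes were called higher, 7 of the 16 were, with a median of 0.84.

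**Figure D5:**
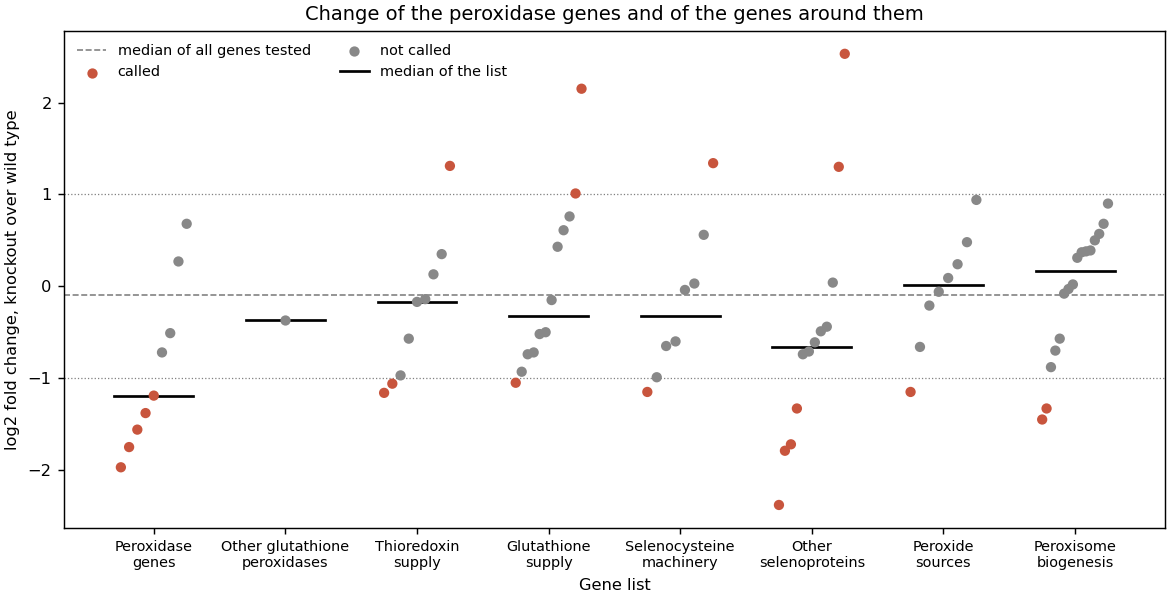
log2 fold change of FPKM (knockout over wild type) of each tested gene in the peroxidase group and in the 7 lists around it; red points were called, grey points were not, bars are list medians and the dashed line is the median of all genes tested (−0.09). The peroxidase median is −1.19 and the medians of the lists lie between −0.66 and 0.16.

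Because the study asked about transcription driven by MYC, promoters of the members were searched for the E-box CACGTG, which MYC-MAX dimers among other factors bind and which reads the same on both strands. The promoters were the RefSeq windows on GRCh38.p14 that begin 250 bases upstream of the RefSeq start of each gene and end 50 bases downstream. This start can differ from the GENCODE gene bounds given above, which span all transcripts of a gene. Of the 10 members 8 matched this table, and PRDX1 and PRDX6 did not. An E-box stood in 3 of the 8 windows, against 7.43% of 27305 promoters. The matches are shown with 12 bases on each side and the E-box in capitals, because they fall on members that differ in direction.

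GPX1: aactgcctgtgcCACGTGacccgccgccgg

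PRDX4: gcggccggcgccCACGTGgcggggcgggga

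PRDX3: cagtaggaaaacCACGTGtcacttgcccaa

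The GPX1 stretch lies at chr3:49358360-49358389 (minus strand), the PRDX4 stretch at chrX:23667398-23667427 (plus strand) and the PRDX3 stretch at chr10:119178952-119178981 (minus strand). The stretches of GPX1 and PRDX4 lie upstream of the start of the canonical transcript but inside the gene bounds printed above, and that of PRDX3 lies outside them. GPX1 and PRDX4 were among the members that fell, and PRDX3 had the highest log2 fold change of the 9. GPX4, PRDX2 and PRDX5, which also fell, had no such match in their windows. The core of the antioxidant response element, TGACNNNGC on either strand, stood in 13.6% of all promoters and in 1 of the 8, that of GPX2, the member near 0 FPKM. The CCAAT box (CCAAT on either strand) stood in 3 of the 8 (CAT, GPX2 and GPX4) and in 35.7% of all promoters, and the GC box (GGGCGG on either strand) in 8 of the 8 and in 44.6%. The matches describe the sequence only.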

How the data were processed

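RNA-seq values of 4 libraries, 2 per group, were used. Per the labels and the study's methods, the authors mapped reads of polyadenylated RNA to hg38 with TopHat2 and an Ensembl annotation. The deposited values are FPKM per gene from Cuffdiff. The deposited condition averages, fold changes, p-values and q-values of the authors' own comparison were not used. Software versions, library normalization and strand use are not given in the sources used here.

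The table had 231916 lines, of which 57979 held values, and each identifier stood on 4 lines. Taken once each in their order, the identifiers fitted the symbols better. Of 57979 symbols, 34949 were then the GENCODE release 44 symbol of their identifier or an older symbol of it. As deposited, 1 was the current symbol, with older symbols not counted. The remaining symbols were not matched by name. SELENOF had become a date and was found by its identifier. Library columns were matched to samples by their titles.

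Genes with an average above 1 FPKM (the mean of the group means) entered limma 3.58.1 (R 4.3.3) as log2(FPKM + 0.1). The prior variance followed the mean level (limma-trend), and the fit held all 4 libraries without a replicate block. Such fold changes understate the change of low genes. The thresholds follow the study, which used Cuffdiff. An exact permutation test of 2 against 2 libraries cannot go below p = 0.33. A step worth 1 read was looked for among low values, where no log2 ratio between replicates was shared by more than 4.53% of genes, so the depth is unknown and no counting intervals are given.

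Length and GC content came from canonical transcripts of GENCODE release 44 for 13132 of 13246 genes, and the correction subtracted a loess surface (span 0.3) from each library's deviation from the mean of the libraries. On simulated data for this comparison, limma recovered 200 of 200 genes changed by 2 on the log2 scale among 13246, with 0 false calls. Every simulated gene had the same independent noise, the other genes were unchanged, and no length or GC trend was added. The simulation checks that the fit runs as intended and cannot give the rate of false calls in the deposited values. Deviations from the group mean in libraries of the same number had a correlation of −0.0904 over genes, and the numbers were not taken to pair libraries.

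Named genes were all members, TXNDC9, 11 genes fixed by name (TXN, TXNRD1, SRXN1, GSR, GCLC, GCLM, SOD1, SOD2, PEX5, SECISBP2 and SEPHS2), and up to 3 called genes per direction and list. Outside this rule, SLC3A2, GLRX2, GLRX3, GSS, QSOX1, SELENOH, the other glutathione peroxidases and the cell type markers were also named. Members and lists were chosen with earlier results of these data known. Tables and figures were made in Python 3.11.15 (matplotlib 3.10.9, scipy 1.17.1, numpy 2.4.6 and pandas 2.3.3).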

Additional observations from a re-analysis of the deposited data

How the results depend on the processing

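For 21 named genes under 16 alternative settings, 280 of 336 log2 fold changes kept their direction and their side of the call, 38 lost a call, 7 gained one and 11 changed sign. PRDX6 and CAT kept both in 16 of 16 settings, and all 9 members kept their direction in all of them except PRDX1 under TPM. Several settings cannot alter a log2 fold change, only a call: the filters on low values, the variance trend, the adjusted p limit and the replicate block. Summing repeated symbols also leaves the members as they are, since each stood on 1 line. Kept directions under these settings carry no information. Rescaling to TPM gave 447 lower and 4380 higher genes, 2 lower and 1 higher members with a median of −0.51, and 3 lower and 20 higher list genes. It turned the log2 fold changes of TXNDC9 to 0.12, PRDX1 to 0.17, SRXN1 to 0.54 and SEPHS2 to 0.64. The correction for length and GC content gave 1036 lower and 846 higher genes, 1 lower member with a median of −0.55, and 3 lower and 1 higher list genes. It turned SRXN1 to 0.02, SOD2 to −0.85 and SEPHS2 to 0.18. With the replicate block added to the correction these were 1041, 818, 1, −0.55, 3, 1, 0.02, −0.85 and 0.18. The replicate block alone gave 2146 lower and 1960 higher genes and 5 lower members, and it changed no other call. For these changes under TPM and the correction the cause was not tested. An average above 5 FPKM left 1220 higher genes, since fewer genes were tested.

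Leaving out each library in turn, with the lone library assumed to vary like the other group, gave 0 to 2633 lower and 0 to 2136 higher genes, 0 to 5 lower members, and 0 to 14 lower and 0 to 7 higher list genes. The counts of 0 came without knockout replicate 1, where limma had 7129 genes under an unadjusted p of 0.05, and without knockout replicate 2, with 7307. SRXN1 ran from −0.32 without knockout replicate 2 to 0.05 without knockout replicate 1, which turned its sign. Without any filter on low values most residual variances were 0, so adjusted p-values of that fit are unreliable. The depth is unknown, so the counting error of single values could not be given.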
